A study of Homo sapiens with 12 samples.

Results

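The vehicle-treated baseline of microRNAs (miRNAs) in NCI-H446 consists of 3 small RNA libraries, DMSO 1, DMSO 2 and DMSO 3, of the 12 libraries in the series. NCI-H446, written H446 in the labels, is a widely used cell line from a human small cell lung cancer. Its cells were exposed for 8 h to dimethyl sulfoxide (DMSO), the solvent of the compound CAPE that the series tested at 40 µM in other libraries. The libraries were taken by their labels, and no treated library enters any value here. Messenger RNA of the same line after DMSO was read in 3 further libraries, which serve below for host genes and for a check of the line's identity. The miRNA libraries held 7387387, 8174713 and 8933025 counts over 2656 mature miRNA names. Levels are given as CPM, counts per 1000000 counts of the library, and errors are the SD over the 3 libraries. The labels do not say whether these came from separate cultures, so the spread may be technical.

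A miRNA is cut from a hairpin precursor, first by DROSHA with DGCR8 in the nucleus and then by DICER1 in the cytoplasm. The resulting duplex has an arm from each side of the hairpin, called 5p and 3p, and usually one of them is kept by an Argonaute protein while the other is degraded. The kept strand finds messenger RNAs mainly through its seed, bases 2 to 8 from the 5′ end, so miRNAs with the same seed form a family with overlapping targets. Many miRNA genes lie close together and are cut from a shared transcript, often within a larger host gene. In lung tumours miR-21 and the cluster from miR-17 to miR-92a are known as growth-promoting, and the let-7 family as a restraint on RAS, MYC and other growth genes. Small cell lung cancer usually has neuroendocrine features, with miR-375 and miR-7 among the miRNAs known from neuroendocrine cells.

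The sequences below belong to the most abundant miRNA and to the members of the let-7 and miR-99 seed families, shown because together with miR-27 and miR-30 these families carried most of the counts. Capitals mark the seed. All sequences are RefSeq entries on GRCh38.p14.
miR-21-5p: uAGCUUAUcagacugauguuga
let-7i-5p: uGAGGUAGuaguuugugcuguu
let-7f-5p: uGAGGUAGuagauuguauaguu
let-7g-5p: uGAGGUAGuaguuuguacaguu
let-7a-5p: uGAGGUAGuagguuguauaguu
let-7b-5p: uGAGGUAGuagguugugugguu
let-7c-5p: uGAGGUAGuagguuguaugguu
miR-99a-5p: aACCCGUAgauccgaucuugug
miR-100-5p: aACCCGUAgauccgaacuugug
miR-99b-5p: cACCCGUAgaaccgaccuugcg
Positions are counted from 1 at the 5′ end. Against let-7a-5p, let-7f-5p differs by 1 base (G12A), let-7c-5p by 1 base (A19G), let-7g-5p by 2 (G12U and U18C), let-7b-5p by 2 (A17G and A19G) and let-7i-5p by 4 (G12U, A17G, U18C and A19U). None of these differences lies in the seed.

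A single miRNA took most of the counts. miR-21-5p, from the MIR21 hairpin at chr17:59841266-59841337 on the plus strand within the gene VMP1, stood at 584511, 574490 and 573057 CPM, which is 57.7% ± 0.624 of all counts (SD, n = 3). With the highest entry kept for each name, the next was let-7i-5p, which stood at 45593, 49217 and 43775 CPM, so miR-21-5p was 12.5 ± 0.753 times higher. The ranges over the libraries did not overlap between miR-21-5p and let-7i-5p, nor between let-7i-5p and miR-30a-5p. The second gap was uneven, with let-7i-5p at 1.12 to 2.11 times miR-30a-5p. The 10 most abundant names held 78.2% ± 0.899 of the counts, the 20 most abundant 86.7% ± 1.01 and the 100 most abundant 98.4% ± 0.119. With miR-21-5p set aside, the 10 most abundant of the others held 51.1% ± 2.01 of what remained. Of the 2656 names, 1288 had no count in any library, 838 were seen in all 3, and 286 reached 10 CPM in all 3. In all 3 libraries 53 names reached 1000 CPM.

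**Figure D1:**
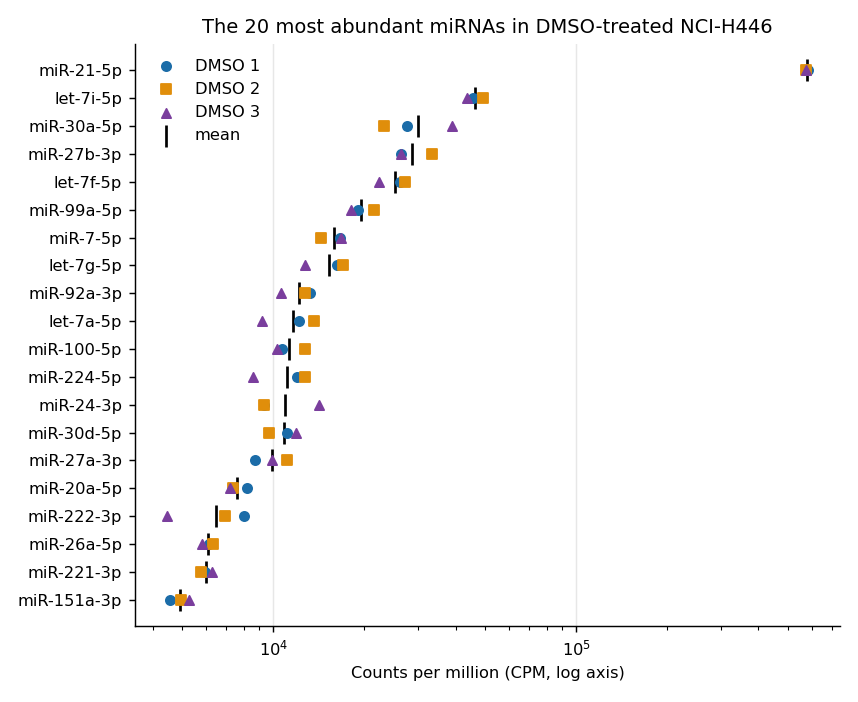
The 20 miRNAs with the highest mean CPM (vertical axis, in order of the mean) and their CPM in each library (horizontal log axis; symbols are the 3 DMSO libraries and the vertical bar their mean). miR-21-5p stands alone at 577353 CPM and the other 19 lie between 4934 and 46195 CPM, with overlapping libraries for most neighbours.

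Behind miR-21-5p and let-7i-5p came miR-30a-5p with 27720, 23298 and 39018 CPM, a miRNA known to restrain SNAI1 and autophagy. miR-27b-3p had 26347, 33309 and 26348 CPM, and let-7f-5p 26125, 27304 and 22271 CPM. miR-30a-5p was the least even of the 3, above miR-27b-3p in DMSO 1 and DMSO 3 and below it in DMSO 2. miR-99a-5p (19524 ± 1747 CPM), miR-7-5p (15892 ± 1351 CPM) and let-7g-5p (15298 ± 2299 CPM) followed. miR-92a-3p (12169 ± 1404 CPM), let-7a-5p (11656 ± 2293 CPM), miR-100-5p (11246 ± 1304 CPM), miR-224-5p (11093 ± 2197 CPM), miR-24-3p (10950 ± 2795 CPM) and miR-30d-5p (10869 ± 1118 CPM) lay so close that their order changed from library to library. miR-27a-3p (9896 ± 1196 CPM), miR-20a-5p (7580 ± 514 CPM), miR-222-3p (6464 ± 1824 CPM), miR-26a-5p (6086 ± 257 CPM), miR-221-3p (5995 ± 253 CPM) and miR-151a-3p (4934 ± 368 CPM) completed the first 20. Of the 19 pairs of neighbours in this order, 9 kept their order in all 3 libraries, and in 6 the ranges over the libraries did not overlap. Those 6 separate miR-21-5p from let-7i-5p, let-7i-5p from miR-30a-5p, let-7f-5p from miR-99a-5p, miR-99a-5p from miR-7-5p, miR-27a-3p from miR-20a-5p and miR-221-3p from miR-151a-3p.

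Several of these names are made by more than a single hairpin, and the deposited table lists such names more than once. Here the entry with the highest total was kept. Adding the entries instead gave 41815 CPM for miR-7-5p, 44383 for let-7f-5p, 30901 for let-7a-5p, 21021 for miR-92a-3p, 19356 for miR-24-3p and 10769 for miR-26a-5p, each over 1.5 times the value above. Of 38 repeated names with at least 100 counts, 24 had entries within 5% of each other, and the largest difference was 94.2%. Under that setting let-7i-5p, at 40900.4 CPM, lay below let-7f-5p and miR-7-5p. The ranks behind miR-21-5p, that of let-7i-5p included, therefore depend on how reads that match several hairpins were handled, which no source used here states. miR-21-5p, at 511222 CPM, remained first with the entries added.

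The 3 libraries differed by more than counting error, since the chi-square per degree of freedom over 303 names with a mean of at least 10 CPM was 93.9 between DMSO 1 and DMSO 2, 308 between DMSO 1 and DMSO 3 and 481 between DMSO 2 and DMSO 3. No pair of libraries thus agreed within sampling noise, and each was counted as a sample. Whether they came from separate cultures is not shown by this. No name differed more than 2-fold between DMSO 1 and DMSO 2, against 12 between DMSO 1 and DMSO 3 and 11 between DMSO 2 and DMSO 3. In DMSO 3, 47 of the 303 names were at least 1.5-fold above the mean of the other libraries and 11 at least 1.5-fold below it. The biological coefficient of variation was 20.1% over the 3 libraries and 10.9% over DMSO 1 and DMSO 2. Among the first 20 names, the coefficient of variation ran from 1.08% for miR-21-5p to 28.2% for miR-222-3p, which had 8021, 6915 and 4457 CPM. Its low library was DMSO 3, the same library in which miR-30a-5p and miR-24-3p were high. miR-21-5p makes up most of each library total, which by itself limits how far its CPM can vary. With library sizes scaled by TMM, an alternative normalization, miR-21-5p stood at 579507 ± 60394 CPM.

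By seed, 10 families held 86.5% of all counts. A RefSeq sequence was found for 2367 of the 2656 names, and these carried 97.3% of the counts. The 303 names at 10 CPM or more included 273 with a sequence. Summed over all their names, 216 seed families reached 10 CPM, and 34 of these families had at least 2 names at that level. The miR-21 seed was carried by miR-21-5p alone in practice: its only relative, miR-590-5p, stood at 1.12 ± 0.400 CPM.

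The let-7 seed family came second, at 109914, 117848 and 98389 CPM, or 10.9% ± 0.978 of all counts. It had 11 names, of which 9 reached 10 CPM. let-7i-5p gave 42.6% ± 1.66 of the family, let-7f-5p 23.2% ± 0.567, let-7g-5p 14.02% ± 0.983 and let-7a-5p 10.7% ± 1.19. In each library the members stood in this order. Below them came let-7b-5p (4578 ± 118 CPM) and let-7c-5p (3029 ± 231 CPM), then let-7e-5p (965 ± 124 CPM), miR-98-5p (920 ± 168 CPM) and let-7d-5p (842 ± 34.6 CPM). The last 2 members, miR-4458 and miR-4500, had 2 and 0 counts over the 3 libraries. With repeated entries added the family held 13.9% of counts, and the order of its first 4 members turned to let-7f-5p (44383 CPM), let-7i-5p (40900.4 CPM), let-7a-5p (30901 CPM) and let-7g-5p (13541 CPM). In the messenger RNA, LIN28A and LIN28B, which block let-7 processing, stood at 0.0603 ± 0.0533 and 0.0838 ± 0.0726 TPM (transcripts per 1000000, a level scaled by transcript length).

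**Figure D2:**
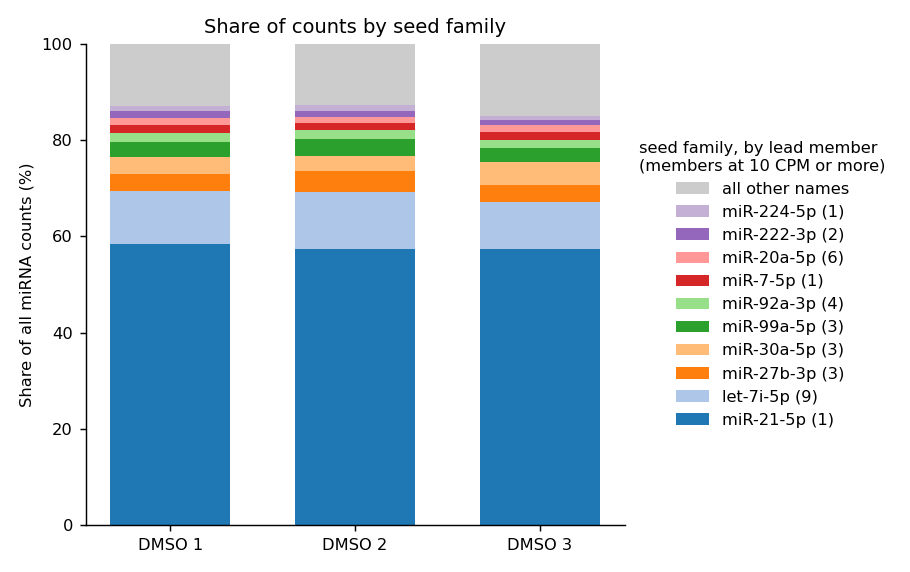
Share of all miRNA counts (vertical axis, %) taken by the 10 most abundant seed families in each DMSO library, stacked, with the number of members at 10 CPM or more in the legend. miR-21 takes 57.7% and let-7 10.9% on average, and the grey remainder of all other names is the tallest in DMSO 3.

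Next came the miR-27 family (38577 ± 5098 CPM) and the miR-30 family (37360 ± 8312 CPM), which did not differ beyond their spread. With repeated entries added, the miR-7 seed (41815 CPM) came before miR-30 (37252 CPM) and miR-27 (34156 CPM). miR-27 acts on lipid and adipogenic genes such as PPARG. Within the first, miR-27b-3p gave 74.3% ± 1.37 and was 2.90 ± 0.201 times miR-27a-3p. In the second, miR-30a-5p gave 79.8% ± 3.64, with miR-30c-5p at 5094, 4896 and 4100 CPM and miR-30e-5p at 2422, 2122 and 3411 CPM. Thus miR-30a-5p and miR-30e-5p were highest in DMSO 3 and miR-30c-5p lowest there. miR-30b-5p (1289 CPM) and miR-30d-5p (10869 CPM), for which no RefSeq sequence was matched, are not in that sum, so the order of the miR-27 and miR-30 families and the share of miR-30a-5p hold only for the matched names.

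The miR-99 and miR-100 family, known to act on MTOR and IGF1R, reached 31543, 36296 and 30416 CPM. miR-99a-5p was 1.78, 1.68 and 1.75 times miR-100-5p in DMSO 1, DMSO 2 and DMSO 3, and they come from different chromosomes. This was among the most even ratios measured, at 1.74 ± 0.050. miR-99b-5p added 1982 ± 211 CPM.

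Of the growth-associated families, that of miR-92a, miR-25, miR-92b and miR-32 reached 16538 ± 1426 CPM, with 73.5% ± 2.29 from miR-92a-3p. The miR-17, miR-20a, miR-93 and miR-106 family reached 14444 ± 714 CPM over 6 names at 10 CPM or more. miR-20a-5p gave 52.5% ± 2.52 of it, miR-17-5p 28.3% ± 1.14 and miR-93-5p 14.6% ± 0.304. The same order held in each library. The miR-221 and miR-222 family, known to act on the cell-cycle inhibitor CDKN1B, reached 12459 ± 1644 CPM. miR-7-5p and miR-224-5p each made up their own family. The miR-378 and miR-320 names stood lower, with miR-378a-3p at 4511 ± 1482 CPM, miR-378i at 1106 ± 406 CPM and miR-320a-3p at 904 ± 216 CPM.

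Genomic clusters were taken as miRNA hairpins on the same strand with neighbours within 10 kb, from RefSeq coordinates on GRCh38.p14. There were 94 such clusters, of which 32 reached 100 CPM and 36 stayed below 1 CPM. Each sum counts only the names made by that cluster alone, so the ranks leave out shared names. MIRLET7A1, MIRLET7F1 and MIRLET7D on chromosome 9, for example, had 1358 CPM of their own. The names they share with other loci (let-7a-3p, let-7a-5p and let-7f-5p) held 37557 CPM and were not divided, so their full rank is not known. By this sum the most abundant was MIR23B, MIR27B and MIR24-1 at chr9:95085208-95086088 on the plus strand, within AOPEP, at 28919, 35926 and 29320 CPM or 3.14% of counts. Its paralogue MIR24-2, MIR27A and MIR23A at chr19:13836287-13836659 on the minus strand reached 14178, 17032 and 15531 CPM. In both, miR-27 stood above miR-23: miR-27b-3p was 11.95 ± 2.21 times miR-23b-3p, and miR-27a-3p was 2.75 ± 0.191 times miR-23a-3p. miR-24-3p, made by both, stood at 9341, 9331 and 14177 CPM and cannot be divided between them by its own sequence, so the place of the miR-24 hairpins within each cluster is not known.

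Second stood MIR99A and MIRLET7C at chr21:16539089-16539911, with 21957, 24621 and 21361 CPM, where miR-99a-5p was 6.47 ± 0.784 times let-7c-5p. The related pair on chromosome 11, MIR100 and MIRLET7A2, gave 11256 ± 1306 CPM. This counts MIRLET7A2 only by let-7a-2-3p (5.59 ± 0.559 CPM), since let-7a-5p is made by other hairpins too. On the X chromosome, MIR224 and MIR452 (chrX:151958578-151959712, minus strand, within GABRE) gave 15736, 16035 and 12858 CPM. miR-224-5p had 11990, 12699 and 8590 CPM and miR-452-5p 3674, 3262 and 4196 CPM, so DMSO 3 was the lowest library for miR-224-5p and the highest for miR-452-5p. MIR221 and MIR222 (chrX:45746157-45747124, minus strand) gave 14749, 13198 and 11332 CPM. The ratio of miR-222-3p to miR-221-3p was 1.34, 1.20 and 0.712, so the order of these neighbours turned in DMSO 3.

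The MIR17 to MIR92A1 cluster at chr13:91350605-91351391 on the plus strand reached 12883, 11686 and 12244 CPM without the names it shares with its relative on the X chromosome. Its hairpins are known to be processed from a common transcript, yet their mature levels spanned a wide range. The following sequences show its different seeds: miR-18a-5p has a seed close to that of miR-20a-5p and miR-17-5p but a much lower level.
miR-20a-5p: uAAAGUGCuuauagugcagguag
miR-17-5p: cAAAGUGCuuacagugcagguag
miR-18a-5p: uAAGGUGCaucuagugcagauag
miR-19a-3p: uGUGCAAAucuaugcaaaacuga
miR-92a-3p: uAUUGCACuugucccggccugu
miR-20a-5p stood at 8170, 7344 and 7226 CPM and miR-17-5p at 4161, 3780 and 4311 CPM. miR-18a-5p stood at 88.1, 90.6 and 121 CPM, so miR-20a-5p was 92.7, 81.0 and 59.7 times higher. miR-19a-3p lay between, at 383 ± 50.6 CPM. The difference between miR-20a-5p and miR-18a-5p was far larger than the spread, and its size was smallest in DMSO 3. The related MIR25, MIR93 and MIR106B cluster (chr7:100093560-100094074, minus strand, within MCM7) had hairpins at like levels, with MIR25 at 2104 ± 38.4 CPM, MIR93 at 2132 ± 135 CPM and MIR106B at 1437 ± 208 CPM.

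**Figure D3:**
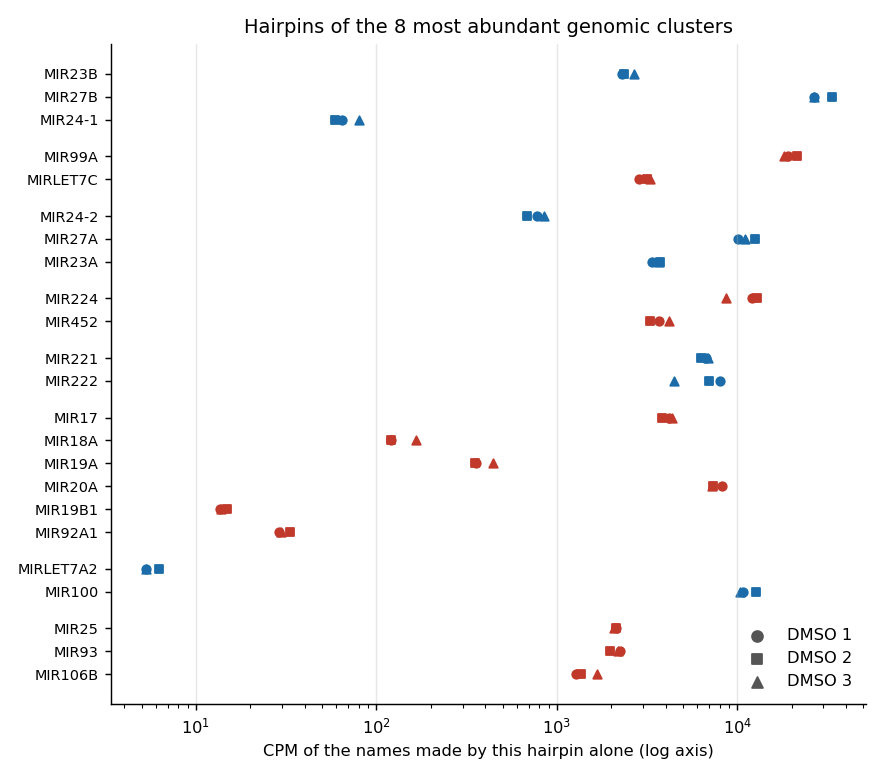
CPM (horizontal log axis) of each hairpin with any count in the 8 most abundant clusters, counting only names made by that hairpin alone; symbols are the 3 DMSO libraries and colour alternates between clusters. The MIR25, MIR93 and MIR106B hairpins lie close together, while MIR20A and MIR18A of the MIR17 cluster lie at 7591 and 136 CPM.

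Large clusters known for placental or imprinted expression were nearly silent. The 42 hairpins from MIR379 to MIR656 on chromosome 14 summed to 4.20, 5.14 and 8.06 CPM, and the 46 from MIR512-1 to MIR519A2 on chromosome 19 to 0.948, 0.489 and 0.336 CPM. None of their names reached 10 CPM.

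For miRNAs made by several hairpins, the discarded arm often carries a copy number and tells the hairpins apart. Of 19 such sets, 15 had at least 100 counts over the 3 libraries, and in all 15 the same name led in every library. In 11 of them the leading name gave at least 80% of the counts. A leading name is not always a single hairpin, since let-7a-3p is made by MIRLET7A1 and MIRLET7A3. miR-7-1-3p had 278, 306 and 371 counts and miR-7-2-3p 0, which allows that copy a share of up to 0.314%. The MIR7-3 hairpin, which also makes miR-7-5p, has no 3p name in this set, so its part cannot be read from it. miR-92a-1-5p, from the chromosome 13 cluster, had 213, 271 and 264 counts, and miR-92a-2-5p, from the X chromosome, had 0, which allows up to 0.401%. Counting error alone sets both limits. For miR-128, miR-128-1-5p had 86, 77 and 110 counts and miR-128-2-5p 0, which allows up to 1.10%.

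Other sets were led less completely. miR-24-2-5p gave 92.4%, 92.1% and 91.4% of its set, so most of the discarded strand of miR-24 came from the chromosome 19 cluster and 8.04% ± 0.534 from the chromosome 9 cluster. miR-30c-2-3p gave 93.9% ± 0.386, miR-16-2-3p 95.2% ± 1.01 and miR-19b-1-5p 99.2% ± 1.37. let-7f-1-3p gave 61.6% ± 1.69 and miR-125b-2-3p 66.2% ± 2.58, so here both copies contributed. These shares describe the discarded arm, and whether the kept arm divides in the same way was not tested. Host genes could be set beside some of them. R3HDM1, around MIR128-1, stood at 47.8, 46.2 and 14.6 TPM, and ARPP21, around MIR128-2, was listed at 0 in the 3 libraries. HNRNPK, around MIR7-1, stood at 872, 885 and 460 TPM.

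**Figure D4:**
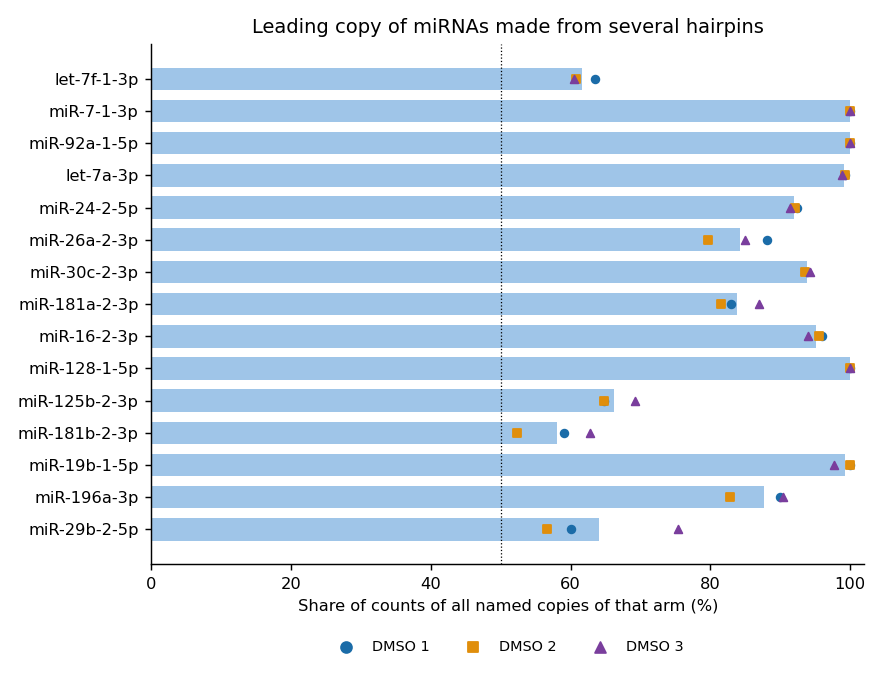
Share (horizontal axis, %) of the leading name among all named copies of the discarded arm, for 15 sets with at least 100 counts. Bars are means over the 3 DMSO libraries, symbols the libraries, and the dotted line marks 50%. miR-7-1-3p, miR-92a-1-5p and miR-128-1-5p reach 100% in every library.

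Arm balance was measured in stems, each the 5p and the 3p arm of a precursor with the arms of numbered copies summed. Arms were tested with edgeR's quasi-likelihood test with the library as a block, at a Benjamini-Hochberg adjusted p under 0.05. Of 257 stems with enough counts, 242 passed (94.2%), with the 5p arm higher in 124 (48.2%) and the 3p arm higher in 118 (45.9%). The number of stems was thus near even, but the counts were not. The 5p arms held 85.5% ± 0.425 of all counts and 66.3% ± 0.46 without miR-21, against 13.7% ± 0.448 and 31.8% ± 0.575 for 3p arms. For miR-21 itself the 5p arm was 99.5%, 99.4% and 99.3% of the stem, and the 3p arm at 3365 ± 701 CPM was still the 29th most abundant name.

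Most stems kept an arm almost alone. Among the 116 stems at 100 CPM or more, the more abundant arm held a median of 98.0% of the stem's counts, at least 90% in 87 stems and at least 99% in 44. In 7 of the 116 the arms differed less than 2-fold. The hairpins below are 3 with a near-complete excess of an arm, followed by 2 near balance, shown with both arms in capitals in their order from 5p to 3p.
MIR452: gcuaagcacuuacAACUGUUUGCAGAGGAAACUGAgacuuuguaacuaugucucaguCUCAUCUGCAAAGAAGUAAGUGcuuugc
MIRLET7G: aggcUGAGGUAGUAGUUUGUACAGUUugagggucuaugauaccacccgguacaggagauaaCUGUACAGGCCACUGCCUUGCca
MIR19A: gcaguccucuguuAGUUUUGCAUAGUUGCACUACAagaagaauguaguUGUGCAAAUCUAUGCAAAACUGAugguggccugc
MIR15B: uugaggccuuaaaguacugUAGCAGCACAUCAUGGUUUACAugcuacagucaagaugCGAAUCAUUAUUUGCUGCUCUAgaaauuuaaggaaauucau
MIR106B: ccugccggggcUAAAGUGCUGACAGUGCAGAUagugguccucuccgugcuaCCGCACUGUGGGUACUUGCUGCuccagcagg
miR-452 had 91283 counts on its 5p arm over the 3 libraries and 0 on its 3p arm, so the 5p arm was at least 30428-fold higher, taking 3 counts over the group for the arm at 0. For let-7g the 5p arm had 16178, 17027 and 12689 CPM and the 3p arm 2.71, 4.16 and 7.95 CPM. On a log2 scale the arms differed by 11.62 with an SE of 0.34 (adjusted p = 3.14e-131 by edgeR). These stems, with miR-186, miR-155, miR-100, miR-192, miR-181d and miR-96, had the 8 largest 5p excesses among the 116. miR-155 is known for its role in lymphocytes and miR-96 for its role in sensory cells.

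On the other side miR-101, miR-19a, miR-320a, miR-1180, miR-103a, miR-23a, miR-92a and miR-222 had the 8 largest 3p excesses among them. miR-101 is known to act on EZH2. Its 5p arm had 15 counts over the 3 libraries and its 3p arm stood at 1805, 1927 and 1736 CPM. The log2 difference was -11.50 (SE 0.34, edgeR adjusted p = 7.45e-130, or 3.92e-10 without the library as a block). By library it was -10.9, -11.9 and -11.9. miR-19a had 3 counts on its 5p arm and 354, 353 and 441 CPM on its 3p arm. miR-92a and miR-222 had more of the minor arm, at 30.5 ± 2.31 and 16.2 ± 2.19 CPM, but these were still only 0.252% ± 0.0313 and 0.264% ± 0.0773 of their stems.

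**Figure D5:**
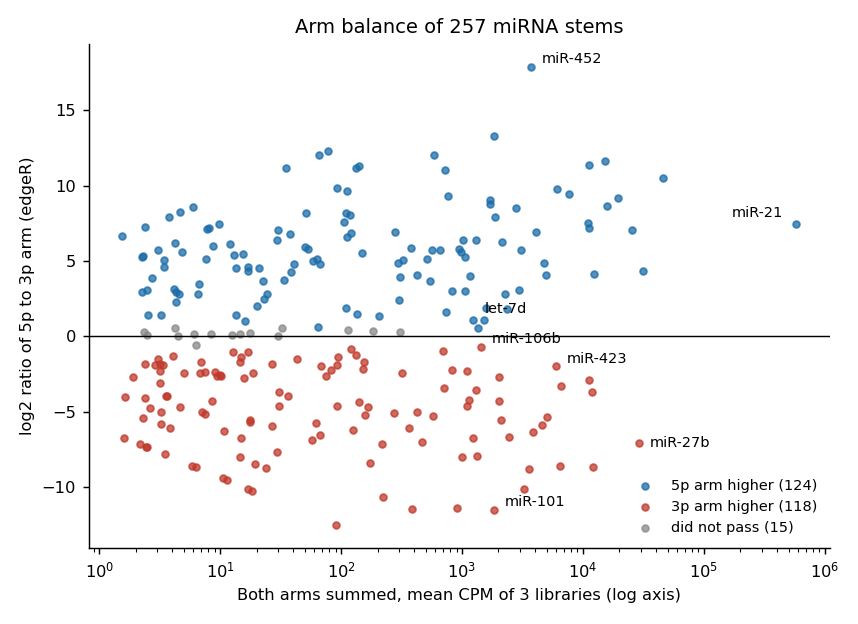
Log2 ratio of the 5p to the 3p arm (vertical axis, edgeR) against the mean CPM of both arms summed (horizontal log axis) for 257 stems; blue and red points passed the test with the 5p or 3p arm higher and grey points did not. miR-452, with no count on its 3p arm, lies highest, and its plotted value depends on the prior count; the 15 grey points lie near 0.

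Few stems used both arms. miR-15b, a relative of miR-16 known to act on BCL2, had 60.4%, 53.0% and 51.9% of its counts on 5p, with 177, 178 and 154 CPM there and 116, 158 and 143 CPM on 3p. It did not pass the test (edgeR adjusted p = 0.186), although it did without DMSO 3 (adjusted p = 0.00613). miR-132 (56.5% ± 4.71 on 5p, adjusted p = 0.109 by edgeR) did not pass either. miR-671 was the only stem of the 116 whose side changed between libraries, with 52.1%, 44.8% and 74.4% on 5p. Its edgeR adjusted p was 0.0902, and 0.0368 without DMSO 2, and without DMSO 3 the log2 ratio turned to -0.093. In 12 further stems below 100 CPM the test was not passed.

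miR-106b, from the MCM7 cluster, had its 3p arm higher, at 848, 855 and 920 CPM against 435, 500 and 754 CPM on 5p. The log2 ratio was -0.68 (SE 0.20, edgeR adjusted p = 0.000803), and the call was lost without DMSO 1 (adjusted p = 0.0600) or DMSO 2 (adjusted p = 0.0693). miR-374a (59.8% ± 6.19 on 5p) and let-7d (67.9% ± 4.0 on 5p) passed with the 5p arm higher. miR-331 (35.9% ± 5.71 on 5p) and miR-365a (33.9% ± 2.56 on 5p) passed with the 3p arm higher. The 3p sequence of miR-365a is shared with miR-365b, so its 3p value may hold reads of both.

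A minor arm can still be abundant where the stem is. Of the arms with fewer counts in their stem, 28 reached 100 CPM and 4 reached 1000 CPM. These 4 were miR-21-3p, miR-30a-3p (1328, 1684 and 1371 CPM), miR-27a-5p (1334, 1495 and 1108 CPM) and miR-423-5p (1168, 1045 and 1494 CPM). They made up very different shares of their stems, from 0.580% for miR-21-3p and 4.90% for miR-30a-3p to 11.7% for miR-27a-5p and 20.4% for miR-423-5p.

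The first base is known to bear on which strand Argonaute keeps, with U favoured. For 174 of the 242 stems that passed, each arm had a single name and both arms had a sequence. Stems with numbered copies on an arm, such as let-7a, miR-24 and miR-92a, were left out. The more abundant arm began with U in 55.2% and the less abundant in 21.3%. Only the more abundant arm began with U in 73 stems, and only the less abundant in 14. In the 82 such stems at 100 CPM or more the shares were 64.6% and 14.6%. Stems of 5p type (62.2% against 20%) and of 3p type (47.6% against 22.6%) leaned the same way. Among the names with a sequence, 57.2% of the 138 at 100 CPM or more began with U and 2.90% with G. Of the 2094 under 10 CPM, 35.9% began with U and 15.0% with G.

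The markers of the line's type gave a mixed picture. In these bulk libraries, fewer cells of a type and less RNA per cell cannot be told apart. Of 9 neuroendocrine and neuronal miRNAs, 4 reached 10 CPM. miR-7 was high at 15930 ± 1353 CPM and made up most of the list's sum, which ranged from 16030 to 17896 CPM. miR-375, a defining miRNA of neuroendocrine cells, had 0 counts in all 3 libraries, which allows up to 0.406, 0.367 and 0.336 CPM. miR-128 (1237 ± 301 CPM), miR-218 (66.1 ± 0.187 CPM) and miR-137 (17.7 ± 1.52 CPM) were the others above 10 CPM. miR-9 (1.89 ± 0.910 CPM) and miR-129 (1.24 ± 0.332 CPM) were low, and miR-124 and miR-153 had 1 count each. In the messenger RNA, NEUROD1 and INSM1, transcription factors of neuroendocrine small cell lung cancer, were listed at 0 in all 3 DMSO libraries. CHGA (0.136 ± 0.202 TPM) and SYP (0.402 ± 0.0456 TPM), secretory vesicle markers, and POU2F3 (0.0717 ± 0.0384 TPM), which defines the tuft cell type, were near 0. YAP1, which marks a non-neuroendocrine type, stood at 67.6, 73.6 and 14.3 TPM. The markers miR-375, NEUROD1 and INSM1 thus went against a neuroendocrine type in these libraries, whereas miR-7 was high, and the line is called by its label here.

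Epithelial miRNAs were low, at 150, 155 and 126 CPM summed over 7 markers, of which 3 reached 10 CPM. miR-203a gave most of this (89.9 ± 16.5 CPM). The miR-200 family, which holds down ZEB1 and ZEB2 in epithelial cells, ranged from 0.556 ± 0.295 CPM for miR-141 to 29.5 ± 16.4 CPM for miR-200b. miR-200b had 48.1, 23.7 and 16.8 CPM and was the least even of them. Of the other cell types, the endothelial marker miR-126 stood at 86.8 to 96.8 CPM, and the 6 haematopoietic markers summed to 18.8 to 34.0 CPM. Among these the red blood cell miRNA miR-451a had 2.84, 5.38 and 16.7 CPM. The 4 mesenchymal and smooth muscle markers summed to 19.1 to 26.3 CPM, the 4 muscle markers to 0.367 to 2.57 CPM, and the liver marker miR-122 stood at 2.98 to 6.16 CPM. The 3 kidney and gut markers summed to 182 to 225 CPM, mostly miR-192 (141 ± 19.1 CPM). Of 8 miRNAs of pluripotent cells, 7 had no count. Whether other cells contributed to these low values was not tested.

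Host genes were read in the separate messenger RNA libraries, in TPM. Messenger RNA library DMSO 3 stood apart from DMSO 1 and DMSO 2 there, so host values are given by library or also without it, and libraries of the same number are not treated as pairs. VMP1, around MIR21, stood at 367, 339 and 78.6 TPM. GABRE, around MIR224 and MIR452, stood at 179, 153 and 18.7 TPM. AOPEP, listed under its older symbol C9orf3, around the MIR23B cluster, stood at 114, 107 and 81.0 TPM. MCM7, a replication helicase subunit around the MIR25 cluster, was even at 204, 199 and 215 TPM.

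Host level and miRNA level did not keep a common ratio. WDR82, which RefSeq places around MIRLET7G, stood at 67.0, 66.1 and 31.5 TPM beside 15298 CPM of let-7g-5p. PPARGC1B, around MIR378A, stood at 4.19, 4.27 and 0.671 TPM beside 4511 CPM of miR-378a-3p. CTDSP2, around MIR26A2, stood at 60.3, 62.8 and 21.4 TPM. Over 52 hairpins that make their name alone, reach 100 CPM and lie in a gene with a TPM, Spearman's rho between miRNA CPM and host TPM was 0.396, and 0.395 without messenger RNA DMSO 3. This is a description across hairpins, some of which share a host, and hairpins are not independent replicates. The median host stood at 28.2 ± 8.26 TPM, and at 33.0 ± 0.110 TPM without messenger RNA DMSO 3.

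Messenger RNAs of the proteins that make and use miRNAs were measured in the same libraries. DROSHA stood at 185, 200 and 91.4 TPM, DGCR8 at 28.5, 29.9 and 12.01 TPM, and XPO5, the nuclear exporter of precursors, at 46.0, 50.5 and 21.7 TPM. DICER1 was lower, at 16.6, 16.1 and 1.62 TPM, and its partner TARBP2 stood at 50.3, 40.8 and 58.4 TPM. Apart from TARBP2, each was lowest in DMSO 3. Of the Argonautes, AGO2 led with 27.8, 26.9 and 16.0 TPM, against 12.7, 12.7 and 3.10 TPM for AGO1, 16.3, 10.8 and 5.38 TPM for AGO3 and 5.03, 4.52 and 0.382 TPM for AGO4. TNRC6A, the Argonaute partner in silencing, stood at 39.6, 37.6 and 3.61 TPM.

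miR-3960, which the title of the series names, was at the limit of detection in the untreated line. It had 1, 0 and 0 counts, where 1 count is 0.135, 0.122 and 0.112 CPM in DMSO 1, DMSO 2 and DMSO 3.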

How the data were processed

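Small RNA of 3 DMSO libraries was analysed. The authors deposited raw counts in 2888 entries, which carry 2656 mature names. How the reads were trimmed, aligned and counted, also those with several matches, is not stated in any source used here. Of 168 repeated names, the entry with the highest total was kept, and CPM were taken on library totals. The deposited TPM of the messenger RNA came from kallisto 0.46.1; the build is GRCh38 (both per the submitters' processing notes).

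Seeds, hairpins and coordinates came from RefSeq tables of GRCh38.p14. Arms of 257 stems (filterByExpr, minimum count 10) were compared with edgeR 4.0.16 (R 4.3.3) on library totals with the library as a block, since both arms of a stem are read in the same library. The test was checked on simulated data: at a 1.5-fold difference 36 of 67 stems were recovered, at 2-fold 57 of 67 and at 4-fold 63 of 66, and 2 of 57 unchanged stems were called. Apart from the set difference, both simulated arms had the mean level of the stem. The measured stems had a median absolute log2 ratio of 4.99, so these figures do not cover stems with an arm near 0. DESeq2 1.42.0, TMM scaling, no filter, exact arm names, summed entries and leaving out each library were alternatives. Limits for counts of 0 take 3 counts. They cover counting error only, as reads carry no molecular identifiers. Capture and ligation differ between small RNA sequences, so a ratio of 2 miRNAs is a ratio of counts, not of molecules.

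Named were the 20 most abundant miRNAs, up to 4 members of each of 10 families, members of 8 clusters, 8 stems each of largest 5p excess, largest 3p excess and nearest balance at 100 CPM or more, fixed marker lists, miR-3960, hosts and processing genes. Members and lists were chosen with earlier results of these data known. Other names were added after their values were seen. Fold changes of stems with an arm near 0 depend on the prior count. Treated libraries were not used here, and an item that the marker list takes is not reported here.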

Additional observations from a re-analysis of the deposited data

How the results depend on the processing

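The count of names at 10 CPM in all 3 libraries, 286, was 501 at 1 CPM and 141 at 100 CPM. The let-7 share of counts, 10.9%, was 13.9% with repeated entries added, where 13 of the 20 named miRNAs, 6 of 10 families and 4 of 8 clusters moved by more than their SD. Leaving out each library in turn gave 78.0% to 78.7% for the 10 most abundant names, 288 to 293 names at 10 CPM, 10.4% to 11.4% for let-7, 2.91% to 3.26% for the largest cluster, and 126 to 128 stems with the 5p and 114 to 121 with the 3p arm higher. Without the replicate block, which pairs the arms of a library, 124 and 118 stems were called, as with it. The adjusted p-values of let-7g and miR-101 were much larger without it, at 1.99e-09 and 3.92e-10 (edgeR). No stem was called on opposite sides by any setting run. DESeq2 called 122 and 116, and without a filter 162 and 141 of 642 stems were called. With neighbours allowed within 50 kb, MIR30C2 and MIR30A became the largest cluster (3.17%). For miR-671 the log2 ratio of 0.45 was -0.093 without DMSO 3 (edgeR adjusted p = 0.557) and 0.84 without DMSO 2, and its 5p level was 109 CPM in DMSO 3 against 49.95 and 43.4 CPM. The median host stood at 33.0 TPM without messenger RNA DMSO 3. Depth limits names below about 0.4 CPM, the level of 3 counts.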

Other observations

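Several miRNAs outside the groups above are known for other roles, and were chosen after their values were seen. miR-146a-5p, an NF-kB-induced brake on innate immune signalling, stood at 1529, 1470 and 2554 CPM. miR-31-5p had 865, 816 and 1130 CPM and miR-155-5p 587, 526 and 647 CPM. The hypoxia-induced miR-210-3p had 309, 332 and 427 CPM, and the p53 target miR-34a-5p 265, 234 and 336 CPM. Each of these 5 was highest in DMSO 3, where 47 of 303 names were at least 1.5-fold above the other libraries. Over the 303 names the median log2 difference of DMSO 3 from the others was 0.135, so names in general ran higher there. The TMM factors were 0.935, 0.954 and 1.12, so TMM scaling lowers the values of DMSO 3 against the others. The order given is that of CPM on library totals. The 5 are thus not set apart from other names by being highest in DMSO 3.

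In DMSO 3, 10 of the 303 names were over 2-fold above the mean of the others and 1 was over 2-fold below it. The most abundant of those raised was miR-193b-3p, at 695, 706 and 1870 CPM. miR-186-5p (1476, 1390 and 2646 CPM) and miR-181a-5p (1570, 1323 and 2642 CPM) were also highest there, by less than 2-fold. The cause was not tested.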
